A study of Mus musculus with 8 samples.

Results

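Peaks of N6-methyladenosine (m6A) were examined in 10 mouse genes of the oxidative stress response. The mark is a methyl group that cells place on some adenosines of their messenger RNA. The cells were RAW264.7, a macrophage line from mouse. The genes are Nfe2l2, Keap1, Bach1, Sqstm1, Txnrd1, Hmox1, Nqo1, Gclc, Gclm and Slc7a11. They were listed by name, with no threshold on peaks or scores, but with earlier results of these data known. A peak was given to the gene that holds it on its own strand, and 7 of the 10 genes held one, among 4318 genes with a peak in any list. Cells were either untreated (control) or exposed for 24 h to 100 µM of TBP, of TCP or of TIP. The labels do not spell out these abbreviations, and all groups are the same cell line. RNA fragments were pulled down with an m6A antibody and sequenced, and the authors deposited 1 list of peaks for each of the 4 immunoprecipitated libraries. The 4 input libraries are not used. Each condition has a single library, so no difference could be tested, and all statements below are descriptions of these 4 libraries.

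The control list held 4432 peaks, TBP 6285, TCP 6981 and TIP 3034, so counts of peaks in a gene have to be read against lists of unequal length. The authors' score for a peak has no stated scale and a different lowest value in each list (8.56 to 10.7), so it is given here as a rank within its own list, where rank 1 is the highest score and tied scores take the best rank. Reads per peak are not given in the lists, which leaves the depth unknown. A missing peak means that none was called, which can follow from a low transcript level, a low mark or low depth, and these cannot be told apart here. Of 12 macrophage markers, 10 held a peak in at least 1 list, and 0 of 18 markers of other cell types did. Positions are on GRCm38 (mm10).

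NRF2, the protein of Nfe2l2, is a transcription factor that switches on antioxidant and detoxifying genes. In unstressed cells KEAP1 binds it and presents it to a cullin 3 ubiquitin ligase, so that it is degraded, and electrophiles or oxidants that modify KEAP1 let it accumulate. NRF2 pairs with small MAF proteins on a DNA motif called the antioxidant response element, where BACH1, a heme-sensing repressor, competes with it. p62, the protein of Sqstm1, can draw KEAP1 into autophagy. In macrophages the pathway is known for tempering inflammatory responses.

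For some of these genes, matches to the antioxidant response element can be shown. Its core was searched as TGACNNNGC, on both strands, in RefSeq promoter windows (GRCm38.p6) from 250 bases before to 50 bases after a transcript start. The table of windows matched 8 of the 10 genes, with 10 windows. The core occurred in 3 of these windows (30.0%), against 12.4% of all 32851 windows. The genes were chosen for this pathway and the windows are few, so the shares were not tested. Sequence outside the windows and genes without a window were not searched, so a gene not printed here may still have the element. The 3 stretches that hold it are printed 5′ to 3′ with the core in capitals, as examples of such matches, on the strand where the core reads.
Nfe2l2 (chr2:75704885-75704913, minus strand, core 240 bases before the start): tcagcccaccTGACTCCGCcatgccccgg
Gclm (chr3:122245413-122245441, minus strand, core 134 bases before the start of 1 of its transcripts, which lies inside the gene span): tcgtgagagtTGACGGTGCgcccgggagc
Txnrd1 (chr10:82859104-82859132, minus strand, core 92 bases before the start of 1 of its transcripts): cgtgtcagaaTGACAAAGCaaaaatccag
These are matches of letters in DNA before a transcript start. The Nfe2l2 and Gclm stretches lie outside the RefSeq gene span, so an m6A peak inside the span could not overlap them. No Txnrd1 peak overlapped the Txnrd1 stretch.

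The m6A peaks of the group were concentrated in the regulator and its inhibitor. Nfe2l2 held 18 peaks over the 4 lists and Keap1 held 16, together 34 of the 45 peaks of the group. These 2 of the 7 genes with a peak held one in every list, as did 29.7% of all genes with a peak. Bach1 and Txnrd1 held 3 peaks each, Gclc and Slc7a11 held 2 each and Gclm held 1. Sqstm1, Hmox1 and Nqo1 held none. Of RefSeq protein-coding genes, 19.3% held a peak in at least 1 list.

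**Figure D1:**
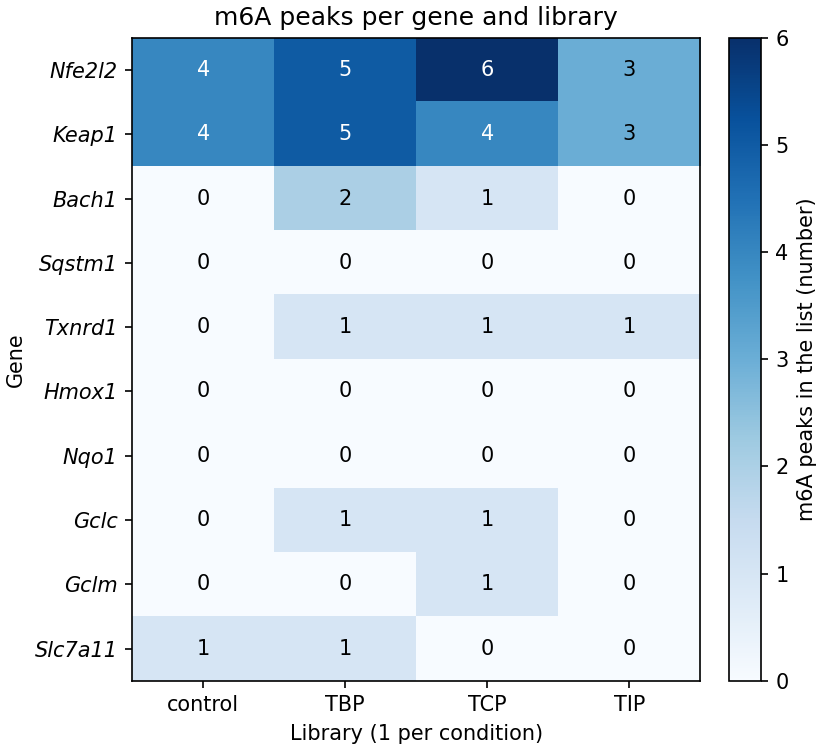
Number of m6A peaks held by each of the 10 genes (rows) in each of the 4 libraries (columns), with darker cells for more peaks. Nfe2l2 and Keap1 held 3 to 6 peaks in every library, and no other gene held more than 2.

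In control, 9 peaks were held by 3 of the 10 genes. In TBP there were 15 peaks in 6 genes, in TCP 14 peaks in 6 genes and in TIP 7 peaks in 3 genes. Relative to list length these numbers were close, at 0.203% of the control peaks, 0.239% of the TBP peaks, 0.201% of the TCP peaks and 0.231% of the TIP peaks. TBP and TCP, which had more of these peaks than control, also had longer lists. With all lists cut to the length of the shortest, ties kept, the 10 genes held 10 peaks after TBP and 10 after TCP. Control and TIP then held 7 each, so TBP and TCP stayed above control. Some of the kept peaks have tied ranks that cross the cut. The part of list length in these counts was not tested. In the full lists, of the 7 genes with a peak, 3 held one in control, 6 with TBP, 6 with TCP and 3 with TIP. Over all 4318 genes the shares were 57.4%, 72.5%, 78.8% and 41.5%.

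Nfe2l2 lies on chromosome 2, 75675513 to 75704663, on the minus strand. It held 4 peaks in control, 5 with TBP, 6 with TCP and 3 with TIP. Few genes had as many: in control 7.66% of the genes with a peak held at least 4, in TBP 6.77% held at least 5, in TCP 4.52% held at least 6 and in TIP 14.2% held at least 3. Of its 18 peaks, 16 lay within 2000 bp of the 3′ end of the gene, and 14 were annotated to exon 5 of 5, its last exon.

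The strongest Nfe2l2 peaks of all 4 lists fell in 1 stretch of that last exon, 75676688 to 75676987, a site of 300 bp. Peaks of different lists were counted as 1 site where they overlapped by at least 1 bp. This was the only site of the group that was present in all 4 lists, 1 of 26, whereas 10.6% of the 11576 sites of all genes were present in all 4. In control the site held a peak at 75676713 to 75676787 with rank 91 of 4432 and a peak at 75676838 to 75676987 with rank 249. In TBP it held 75676713 to 75676812 (rank 41 of 6285) and 75676838 to 75676987 (rank 123). Control and TBP thus shared both starts, and the second peak had the same edges in both.

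In TCP the same stretch was called as 3 peaks. They lay at 75676688 to 75676762 (rank 554 of 6981), 75676788 to 75676812 (rank 87) and 75676838 to 75676912 (rank 329). The strongest of them, of rank 87, adjoined the strongest control peak without sharing a base. It was joined to the site through TBP and TIP peaks. In TIP it was called as 75676713 to 75676862, with rank 2 of 3034, and 75676913 to 75676962, with rank 1805. TIP was the only list in which the 25 bases from 75676813 to 75676837 were covered; control, TBP and TCP all broke off there. Bases covered in all 4 lists numbered 75, from 75676713 to 75676762 and from 75676838 to 75676862.

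Ranked by the strongest peak of each gene, Nfe2l2 took place 72 of 2480 genes in control, 30 of 3130 with TBP, 75 of 3404 with TCP and 2 of 1791 with TIP. It thus stood among the strongest-scored transcripts in each list. The TIP scores take only 44 distinct values and span 10.7 to 17.6, while those of control reach 61.7, so place 2 in TIP is not a measure of a higher mark.

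**Figure D2:**
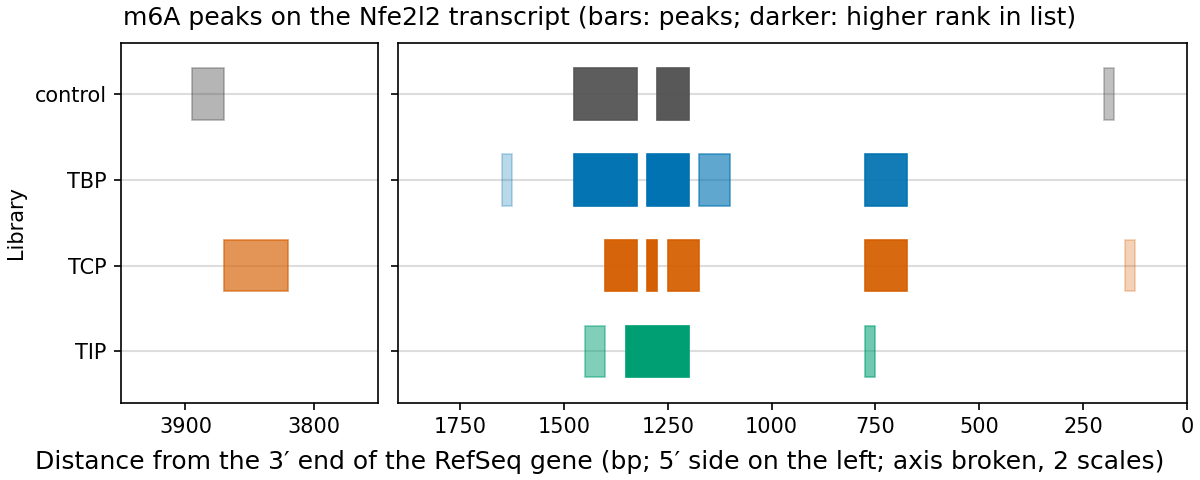
Peaks on Nfe2l2 in the 4 libraries, as bars along the distance in bp from the 3′ end of the RefSeq gene, with the 5′ side on the left and darker bars for a higher rank in the list; the axis is broken and the left panel, with the exon 2 peaks, has a wider scale. The bars of all 4 libraries meet in the site of 300 bp in the last exon, and outside it a site shared by TBP, TCP and TIP and peaks of single libraries are seen.

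A second site of the last exon, 75676188 to 75676287, was called after each compound and not in control. Of the 11576 sites of all genes, 11.1% were present in 3 lists. The share of them that lacked control was not counted. In TBP and TCP the peak had the same edges, with rank 555 of 6285 and rank 534 of 6981. In TIP 25 of its bases were called, 75676263 to 75676287, with rank 1565 of 3034. The remaining Nfe2l2 sites were each in 1 list. TBP had peaks at 75676613 to 75676687 (rank 2789) and 75677138 to 75677162 (rank 5377), the latter at the lowest score of its list.

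Control and TCP called neighbouring but not overlapping windows in 2 other parts of Nfe2l2. In the 3′ UTR the control peak lay at 75675688 to 75675712 (rank 3291) and the TCP peak at 75675638 to 75675662 (rank 5932), with 25 bases between them. In exon 2 the control peak lay at 75679383 to 75679407 (rank 2938) and the TCP peak at 75679333 to 75679382 (rank 2827), so that they touched without sharing a base. Widths were multiples of 25 bp for 44 of the 45 peaks of the group, and a shift of 25 bp is enough to part such narrow calls. No list other than control and TCP had a peak in exon 2 or in the 3′ UTR.

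Keap1 lies on chromosome 9, 21229730 to 21239332, minus strand. It held 4 peaks in control, 5 with TBP, 4 with TCP and 3 with TIP. Of the 16, 12 were annotated to the 3′ UTR, and 14 lay within 2000 bp of the 3′ end. Its strongest peak ranked 1698 of 4432 in control, 483 of 6285 with TBP, 748 of 6981 with TCP and 733 of 3034 with TIP. The Keap1 peaks thus stood lower in each list than the leading Nfe2l2 peak, at 38.3%, 7.68%, 10.7% and 24.2% of the way down.

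No Keap1 site was present in all 4 lists by overlap. The strongest peaks of control, TBP and TCP shared a site at 21230305 to 21230379, with 50 bp called in control and TBP and 75 bp in TCP. TIP had no peak there and instead had one at 21230255 to 21230304 (rank 733), which adjoins it without sharing a base. A second 3′ UTR site, 21230480 to 21230554, held a TBP peak (rank 2789), a TCP peak (rank 1354) and a TIP peak (rank 1687) and no control peak. The share of sites of all genes with this pattern was not counted. The TBP and TIP peaks in it touched without sharing a base, and the TCP peak joined them by sharing 25 bases with TIP.

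TBP and TCP shared 2 further places in Keap1: both had a peak ending at 21230679 (rank 1170 in TBP and rank 1541 in TCP) and both had one ending at 21230829 (rank 4741 and rank 3095). The TIP peak at 21230680 to 21230754 (rank 733) adjoins the former without sharing a base. Control alone had peaks at 21230205 to 21230254 (rank 2610) and 21230555 to 21230579 (rank 2938). The calls of the 4 libraries thus lay side by side in 1 stretch of the transcript. When peaks up to 100 bp apart were joined, 14 of the 16 Keap1 peaks fell into 1 site of 625 bp, 21230205 to 21230829, present in all 4 lists with 3 control, 4 TBP, 4 TCP and 3 TIP peaks. Under this rule 2 of 15 sites of the group were in all 4 lists, against 16.2% of the sites of all genes.

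**Figure D3:**
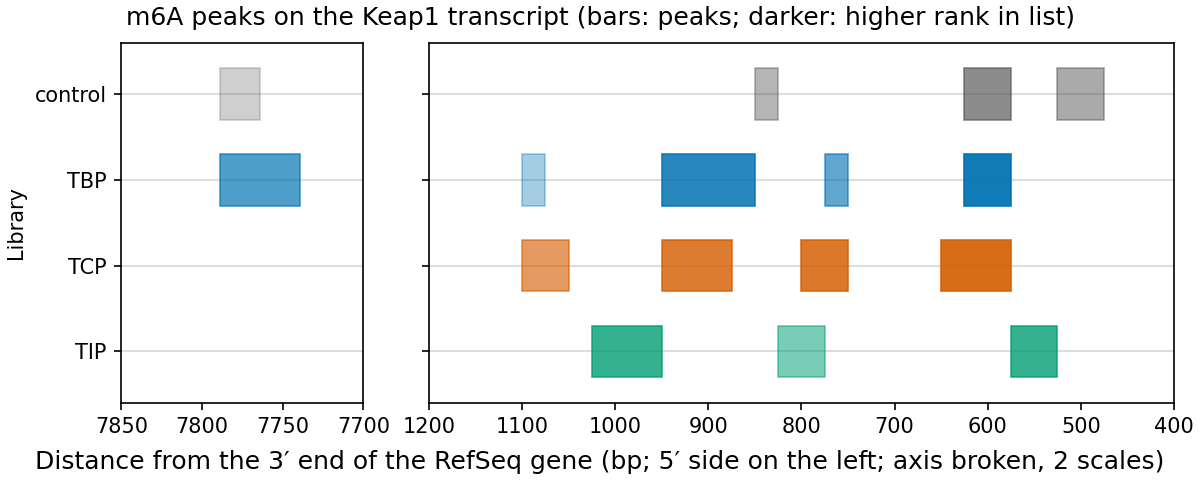
Peaks on Keap1 in the 4 libraries, as bars along the distance in bp from the 3′ end of the RefSeq gene, with the 5′ side on the left and darker bars for a higher rank in the list; the axis is broken and the left panel, with the exon 2 peaks, has a wider scale. The TIP bars fall largely between the bars of the other libraries, and all 4 libraries have bars in the same stretch of 625 bp.

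Away from the 3′ end, Keap1 had a site in exon 2 of 6, at 21237469 to 21237518. Control called 21237494 to 21237518, with rank 3772 of 4432, at the lowest score of the list. TBP called all 50 bases, with rank 2299 of 6285. TCP and TIP had no peak in this exon.

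The Keap1 peaks ending at 21230829 in TBP and TCP need a reservation. The lists annotate them to exon 3 of 3 of a transcript with no gene identifier, and both lists also have a peak on the plus strand over them, at 21230768 to 21230842, annotated to the same exon. That plus-strand peak ranked 2299 of 6285 in TBP and 2604 of 6981 in TCP. It was not counted for Keap1, and it was the only peak on the opposite strand over any of the 10 genes. Without the minus-strand pair, the peaks of the group numbered 14 in TBP and 13 in TCP.

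Bach1, the repressor that competes with NRF2, lies on chromosome 16, 87698954 to 87733346, plus strand. It held no control peak, 2 TBP peaks, 1 TCP peak and no TIP peak. Both TBP and TCP called exon 3 of 5, but at places 375 bases apart: 87719676 to 87719725 in TBP (rank 3788 of 6285) and 87719226 to 87719300 in TCP (rank 3095 of 6981). The second TBP peak lay in the 3′ UTR at 87730418 to 87730542 (rank 1314). No Bach1 site was in more than 1 list.

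Sqstm1, whose protein p62 is an autophagy receptor, had no peak in any list. No peak of either strand lay within its span on chromosome 11, 50200152 to 50210820, or within 2000 bp of it.

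Among the antioxidant targets, Txnrd1 was the only gene with a peak after each compound and none in control. It encodes cytosolic thioredoxin reductase, which keeps thioredoxin reduced, and lies on chromosome 10, 82833951 to 82897724, plus strand. TBP had a 3′ UTR peak at 82896202 to 82896276 (rank 2299 of 6285) and TCP one inside it, at 82896227 to 82896251 (rank 3393 of 6981). The TIP peak lay elsewhere, in exon 8 of 15 at 82881857 to 82881881, with rank 2704 of 3034, at the lowest score of its list. The peaks after TBP and TCP were thus at 1 site and the TIP peak at another. At equal list length Txnrd1 had no TCP peak, and with scores at or above the list median it had no TIP peak. How many of all genes had a peak after each compound and none in control was not counted.

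Gclc and Gclm encode the catalytic and the modifier subunit of glutamate-cysteine ligase, which catalyses the rate-limiting step of glutathione synthesis. Gclc, on chromosome 9, 77754535 to 77794489, plus strand, had 1 peak in TBP and 1 in TCP. The TBP peak was annotated to exon 15 of 16 and spanned 891 bp, 77792154 to 77793044, with rank 4741 of 6285. The TCP peak lay in the last exon at 77793095 to 77793194 (rank 1541 of 6981), with 50 bases between them. The TBP peak was the only one of the group wider than 500 bp, and without peaks of that width Gclc had no TBP peak. Gclm, on chromosome 3, 122245487 to 122267215, plus strand, had 1 peak, in the TCP list, in the 3′ UTR at 122266394 to 122266468 (rank 2604 of 6981).

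Slc7a11 encodes xCT, the light chain of the cystine and glutamate exchanger that brings in cystine for glutathione. It lies on chromosome 3, 50364936 to 50499087, minus strand, and was the only target with a control peak. That peak, at 50372291 to 50372340 in the 3′ UTR, ranked 2938 of 4432. TBP called the part from 50372291 to 50372315, with rank 5377 of 6285, at the lowest score of the list. TCP and TIP had none. This site thus recurred between control and TBP with low ranks in both.

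Hmox1, which encodes the inducible heme oxygenase, and Nqo1, which encodes a quinone reductase, are textbook NRF2 targets. Neither had a peak in any list. No peak of either strand lay within Hmox1 (chromosome 8, 75093618 to 75100593) or Nqo1 (chromosome 8, 107388225 to 107403205), or within 2000 bp of either. The data do not say whether these transcripts were present in the libraries.

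A gene with a peak in a compound's list but not in control was called gained, and a gene with the opposite pattern was called lost. The 3 comparisons share the control library. In TBP, 3 of the 7 genes with a peak were gained (Bach1, Txnrd1 and Gclc) and 0 were lost, where 25.0% of all 4318 genes were gained and 9.96% lost. In TCP, 4 were gained (Bach1, Txnrd1, Gclc and Gclm) and 1 was lost (Slc7a11), where 30.7% of all genes were gained and 9.26% lost. In TIP, 1 was gained (Txnrd1) and 1 was lost (Slc7a11), where 7.62% were gained and 23.6% lost. With so few genes, these counts do not set the group apart from all genes. No peak of a gained gene stood high in its list, the best being that of Bach1 in TBP at 20.9% of the way down.

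List length moved some of these calls. With all lists cut to the length of the shortest, ties kept, TCP gained 2 of the genes (Gclc and Gclm), and Bach1 and Txnrd1 no longer had a TCP peak. Because of ties the cut lists held 3290 control, 3085 TBP, 3094 TCP and 3034 TIP peaks. In TBP the gained genes were then Bach1 and Txnrd1, and Slc7a11 was lost. Nfe2l2 kept 3 peaks in control, 4 with TBP, 5 with TCP and 3 with TIP, and Keap1 kept 3, 4, 3 and 3. The control peak of Slc7a11 and the weakest kept control peaks of Nfe2l2 and Keap1 have tied ranks 2938 to 3290, which cross the cut. The same holds for the weakest kept TBP peaks of Nfe2l2 and Keap1 (2789 to 3085) and the weakest kept TCP peak of Nfe2l2 (2827 to 3094).

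Dose and time were the same for the 3 compounds, but the lists differ in length, with 6285 peaks in TBP, 6981 in TCP and 3034 in TIP. TBP and TCP both had peaks in Nfe2l2, Keap1, Bach1, Txnrd1 and Gclc. They differed in Gclm, with a peak in TCP, and in Slc7a11, with a peak in TBP. In TIP, Nfe2l2, Keap1 and Txnrd1 had peaks. The peaks of TBP and TCP in Bach1 and Gclc did not overlap, so a gene held in both lists did not always mean a shared site. At equal list length Bach1 and Txnrd1 had no TCP peak and Gclc had no TBP peak. TBP and TCP then shared only Nfe2l2 and Keap1. Without replicates none of these differences could be tested.

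By class, 20 of the 45 peaks of the group were annotated to 3′ UTRs and 25 to exons outside UTRs. Over all peaks, 48.5% (TCP) to 50.9% (control) were annotated to 3′ UTRs and 45.0% (control) to 47.7% (TIP) to exons. Of the 45 peaks, 35 lay within 2000 bp of the 3′ end of the gene, a share not counted over all genes. None was annotated to a 5′ UTR. By rank, 3 of 9 control peaks stood in the upper 50% of their list, 10 of 15 in TBP, 13 of 14 in TCP and 3 of 7 in TIP. The median peak of the group stood at 66.3% of the control list, 36.6% of the TBP list, 22.1% of the TCP list and 51.6% of the TIP list. The control peaks in the upper 50% were 2 of Nfe2l2 and 1 of Keap1, and those of TIP were 1 of Nfe2l2 and 2 of Keap1. In TCP the count includes the Txnrd1 peak, whose tied ranks 3393 to 3743 of 6981 cross the middle of the list. A rank in percent depends on how many weak peaks its list holds, and the lists differ in length, so differences between lists are not a measure of the mark.

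**Figure D4:**
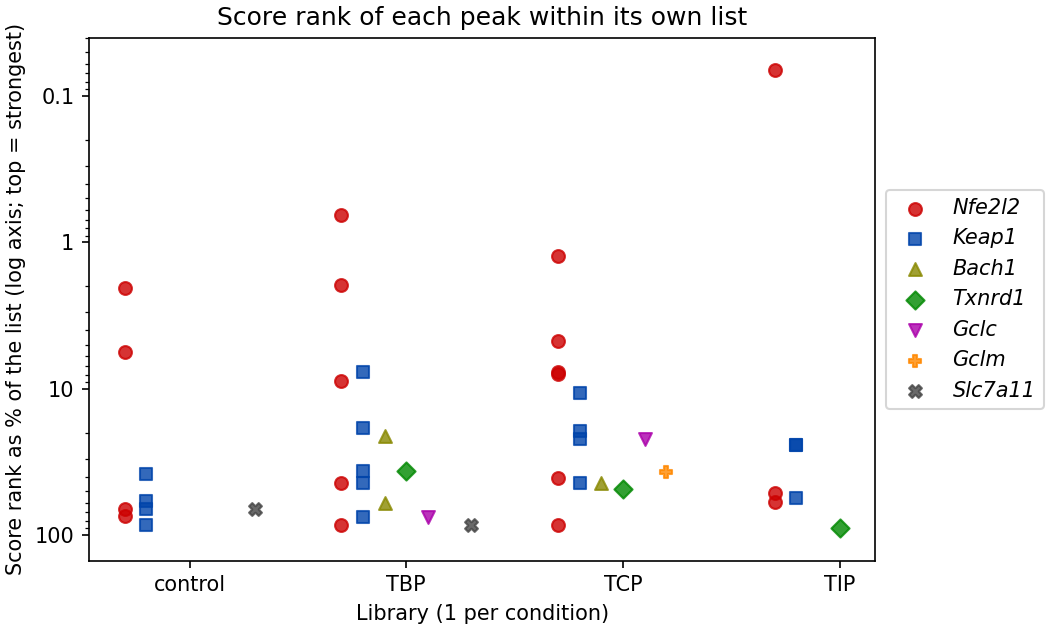
Score rank of each of the 45 peaks as a percentage of its own list, on a log axis with the strongest at the top, by library and gene (2 Keap1 peaks in TIP coincide). Nfe2l2 has the highest-ranked peak of the group in every library, from 0.0659% in TIP to 2.05% in control.

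Of the 26 sites of the group, 17 were in 1 list, 5 in 2, 3 in 3 and 1 in 4. The share in 1 list was 65.4%, and over all genes it was 60.6%. The 3 sites in 3 lists were the second Nfe2l2 site in the last exon and 2 of the Keap1 3′ UTR sites. The sites in 2 lists were 3 in Keap1, 1 in Txnrd1 and 1 in Slc7a11. Recurrence beyond 2 lists was thus found in Nfe2l2 and Keap1 and in no other gene of the group. Of the other genes only Txnrd1 held peaks in more than 2 lists, so the rest could not have such a site.

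To place the group in its pathway, 110 further genes in 8 lists were counted. Of these, 39 had a peak in any list: 20 in control, 26 with TBP, 21 with TCP and 17 with TIP. The shares were 18.2% in control (exact Clopper-Pearson 95% interval 11.5 to 26.7, counting error only), 23.6% in TBP (16.1 to 32.7), 19.1% in TCP (12.2 to 27.7) and 15.5% in TIP (9.27 to 23.6). The shares of RefSeq protein-coding genes were 11.2%, 14.1%, 15.3% and 8.09%. The pathway genes were chosen with earlier results of these data known and are not a random draw. The intervals therefore do not test them against all genes. How many of these genes the cells express is not in the lists, and its part in the difference was not tested. Of the 39 genes, 12 were gained and 6 lost in TBP, where 25.0% of all genes with a peak were gained and 9.96% lost. In TCP 8 were gained and 7 lost (30.7% and 9.26% of all), and in TIP 3 were gained and 6 lost (7.62% and 23.6% of all).

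**Figure D5:**
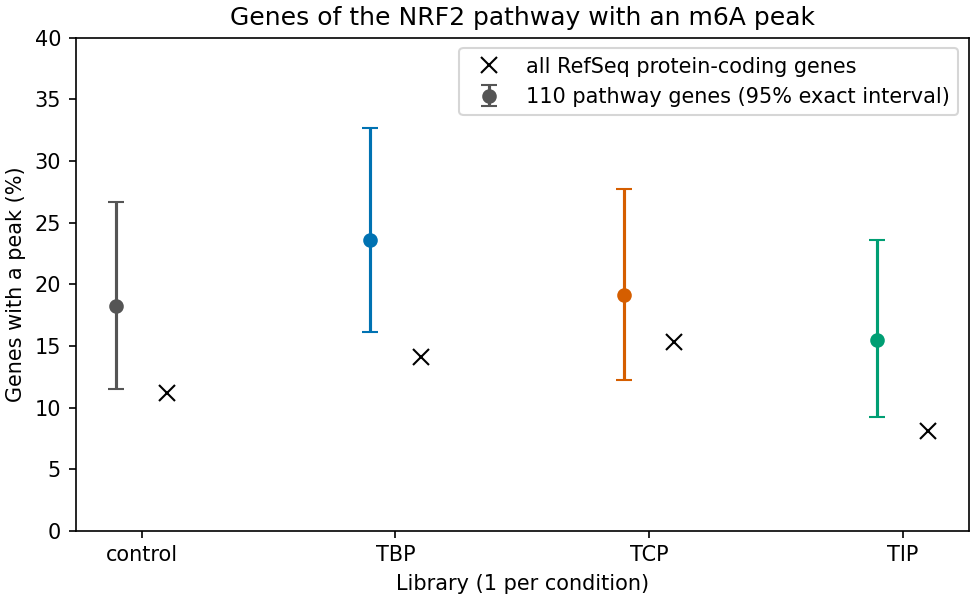
Share of the 110 pathway genes with an m6A peak in each library (circles, with exact 95% intervals) beside the share of all RefSeq protein-coding genes (crosses), in percent. The circles lie between 15.5% and 23.6%, and the crosses between 8.09% and 15.3%. The pathway genes were chosen with earlier results known, so the intervals are no test against all genes.

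Of the 21 partners and regulators of NRF2, 4 had a peak in control, 5 with TBP, 8 with TCP and 3 with TIP. Nfe2l1, a related transcription factor, had 4, 4, 3 and 3 peaks (control, then TBP, TCP and TIP). Sesn1, a stress-induced sestrin, had 2, 3, 2 and 3 in the same order, and Cul3, the cullin of the ligase that KEAP1 serves, had 1, 2, 3 and 1. These were the 3 genes of that list with a peak in all 4 libraries. By the sum of absolute differences of the peak numbers in the 4 libraries, the pathway genes nearest to Nfe2l2 were Nfe2l1 (a sum of 4), Cybb and Sesn1 (8 each), Pgd (10) and Cul3 (11, tied with Ireb2 and Txnip).

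Of 20 genes of the glutathione system, 3 had a peak in any list, where 19.3% of protein-coding genes had one. The numbers were 2 in control, 0 with TBP, 2 with TCP and 0 with TIP, and the shares of protein-coding genes are those given above. Gpx1, a glutathione peroxidase, had 1, 0, 1 and 0, Chac1, which breaks down glutathione, had 1, 0, 0 and 0, and Slc3a2, the heavy chain that pairs with xCT, had 0, 0, 1 and 0. Of 12 genes of the thioredoxin and peroxiredoxin system, 4, 4, 2 and 2 had a peak. Txnip, an inhibitor of thioredoxin, had 2, 3, 1 and 1 peaks, Prdx6 had 1, 1, 1 and 0, and Txn1, thioredoxin itself, had 1, 1, 0 and 1. Txnip was the only gene of both systems with a peak in all 4 libraries.

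Heme and iron genes had peaks in 3, 5, 3 and 3 of 13 members. Ireb2, an iron-responsive RNA-binding protein, had 1, 1, 3 and 2 peaks, Tfrc, the transferrin receptor, had 1, 1, 2 and 2, and Fth1, the ferritin heavy chain, had 1, 0, 0 and 1. Of 11 genes of NADPH supply, 1, 3, 1 and 1 had a peak. Pgd, an enzyme of the pentose phosphate pathway, had 3, 2, 1 and 2 peaks, while Idh2 and Nadk had 1 each, in TBP. Of 14 detoxifying genes 2, 3, 0 and 3 had a peak, with Sod1, cytosolic superoxide dismutase, at 1, 1, 0 and 1, Aldh2 at 0, 1, 0 and 1 and Akr1a1 at 0, 0, 0 and 1.

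Of 13 autophagy receptors and partners of p62, 1, 2, 3 and 2 had a peak (control, then TBP, TCP and TIP). Nbr1, a receptor related to p62, had 1, 0, 1 and 1 peaks, Tax1bp1 had 0, 0, 2 and 1, and Wdfy3 had 0, 1, 1 and 0. Of the 6 subunits of the phagocyte NADPH oxidase, which makes superoxide, 3, 4, 2 and 3 had a peak. Cybb, its catalytic subunit, had 8, 5, 4 and 5 peaks, the most of any gene in the 8 lists, and more in control than in the longer TBP and TCP lists. Ncf1, a cytosolic subunit, had 2, 1, 1 and 1, and Rac2 had 1, 1, 0 and 1.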

How the data were processed

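The 4 peak lists of the immunoprecipitated libraries (1 per condition) were read as the authors deposited them, with the position and strand of each peak, its class, the nearest gene and a score. The score is the authors' value, with no stated scale, and was used to rank and filter peaks within a list. Per the submitters' processing notes, the tools include Trim Galore 0.6.5, HISAT2 2.1.0, ChIPseeker 1.26 and HOMER 4.11, whose roles are not named, and the genome is GRCm38 (mm10). Which program called the peaks, at what threshold and with or without the input, is not given in the sources used.

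Each of 20732 peaks was given to the gene in its exon annotation (44.2%), else to the deposited nearest gene where that gene encloses the peak on the same strand (37.7%), else to a single RefSeq gene over it (16.6%; GRCm38.p6). RefSeq strands came from the promoter table and the lists, and in that last step a gene of unknown strand was used where no gene lay over the peak on its strand. The remaining 1.44% had no gene. Small RNA genes were passed over. The gene lists and members were chosen with earlier results of these data known. Named genes are all 10 members, up to 3 genes per pathway list with the most peaks, and the 5 nearest to Nfe2l2 in peak numbers. Sites were joined by a routine that was tested on simulated data. Alternatives were the nearest-gene column, the gene span, 2 score minima, no peaks over 500 bp, other overlap rules and other ranks for ties. Python 3.11.15, pandas 2.3.3 and SciPy 1.17.1 were used. Lists without replicates allow no test, and intervals cover counting error only.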

Additional observations from a re-analysis of the deposited data

Results flagged for a closer look

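Within Nfe2l2 the number of peaks was above control with TBP and TCP and below it with TIP, and within Keap1 it was above control with TBP and below it with TIP; the difference between compounds was not tested. Nfe2l2 had a difference of 1 peak with TBP, 2 with TCP and -1 with TIP. Keap1 had one of 1 with TBP, 0 with TCP and -1 with TIP. The TBP and TCP lists are longer than control and the TIP list is shorter. At equal list length, Nfe2l2 had 3, 4, 5 and 3 peaks (control, then TBP, TCP and TIP) and Keap1 had 3, 4, 3 and 3. Neither gene was then below control with TIP. A peak on the plus strand over the 3′ end of Keap1, outside the counts of the report, was called in TBP (rank 2299 of 6285) and in TCP (rank 2604 of 6981) at 21230768 to 21230842, and not in control or TIP.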

How the results depend on the processing

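By the deposited nearest-gene column, the peaks of the group numbered 5 in control, 9 in TCP and 4 in TIP, and 0 sites were in all 4 lists, because that column names Hnrnpa3 for all 18 Nfe2l2 peaks. With scores at or above the list median, 3 peaks were left in control and 3 in TIP, 0 genes were lost in TCP, and 0 were gained and 0 lost in TIP. At equal list length, 1 gene was lost in TBP and 2 were gained in TCP. Under an overlap of at least 50% of the shorter peak, and with peaks up to 100 bp apart joined, 2 sites were in all 4 lists; in the former the Nfe2l2 site was parted in 2, in the latter the Keap1 3′ UTR was added. With tied scores at the worst rank, the strongest peak of Keap1 in control ranked 1881, Bach1 in TCP 3392, Txnrd1 2527 in TBP, 3743 in TCP and 3034 in TIP, Gclc 5376 in TBP and 1641 in TCP, Gclm 2826 in TCP, and Slc7a11 3290 in control and 6285 in TBP. Gene spans alone, leaving out peaks over 500 bp, and leaving out the Keap1 peaks without a gene identifier (chosen after seeing the data) changed no count of the group by over 1.5 times.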

Other observations

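The pathway genes below were chosen after their ranks were seen. The strongest Txnip peak ranked 111 of 4432 in control, 62 of 6285 with TBP, 67 of 6981 with TCP and 17 of 3034 with TIP. The strongest Cul3 peak ranked 52, 175, 376 and 17 in the same order, so the ligase partner of KEAP1 stood above Keap1 in each list. Sesn1 ranked 2610, 81, 44 and 17. Ireb2 ranked 376, 140, 1774 and 17. Rank 17 in TIP is a tied score that Txnip, Cul3, Sesn1 and Ireb2 share, in a list with 44 distinct scores. The ranks come from lists of unequal length, and differences between lists were not tested.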
